A study of Mus musculus with 12 samples.

Results

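Complexes II to V and cytochrome c make up the later part of the mitochondrial respiratory chain and the ATP synthase. The genes described here were chosen by name: symbols that begin with Sdh and a letter, Uqcr, Uqcc, Atp5, Surf1, Sco or Cox and a digit, plus Cycs and Cyc1. The rule found 64 of the 25206 probe sets of the array, each probe set standing for 1 gene. They were 8 genes of complex II, 12 of complex III, the cytochrome c gene Cycs, 29 genes of complex IV, 13 genes of complex V, and Scoc. Scoc encodes a short coiled-coil protein of no respiratory complex and was picked up only by its first letters. Another 7 protein-coding genes that fit the rule (Atp5j2, Atp5l, Atp5g1, Atp5h, Uqcrb, Cox7c and Atp5g2) and the subunits encoded by mitochondrial DNA were not analysed here.

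Expression was measured on 12 Affymetrix arrays. The RNA came from female mouse cells of C57BL/6 background, either embryonic stem cells (abbreviated ESC) or iPSC, the induced pluripotent stem cells obtained by reprogramming. Both were kept undifferentiated without feeders or serum, on gelatin in 2iLIF medium, so these conditions were common to all groups. The cells were stained with TMRM, a dye that accumulates in mitochondria according to their membrane potential, and fractions with low or high dye signal were then collected by flow sorting. With 3 arrays each, the groups were ESC low, ESC high, iPSC low and iPSC high, 4 in all (arrays are numbered 2, 3 and 4 in the labels). The labels name no cell line, clone or separate culture, so every p-value here rests on a spread between arrays that may be technical. Values are log2 expression, and a difference of 1 is a doubling.

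In the respiratory chain, complex II (succinate dehydrogenase) passes electrons from succinate to ubiquinone. Complex III passes them on to cytochrome c, a small soluble carrier, and complex IV (cytochrome c oxidase) hands them to oxygen. Complexes III and IV pump protons out of the matrix, which builds the membrane potential that TMRM reports, and complex V (ATP synthase) uses the return of those protons to make ATP. Complex II pumps none. Many of these genes are known targets of the transcription factors NRF1 and GABPA (also called NRF2), and the Cycs promoter is also a known target of CREB.

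The upstream sequence of Cycs is shown because Cycs was the member that rose in the high fraction, and that of Cox7b because it was the next highest. That of Cox6a1 was chosen for its motif matches, so having them is no result about Cox6a1. Each sequence is the 250 bases before the annotated transcription start, 5′ to 3′ on the gene's strand, from RefSeq on GRCm38.p6. Capitals mark matches, on either strand, to GCGCATGC (NRF1), CCGGAAG (GABPA) and TGACGTCA (CREB), core motifs that were chosen after matches in these windows had been looked at. The windows are chr6:50566570-50566819 (minus strand) for Cycs, chrX:106015450-106015699 (plus strand) for Cox7b and chr5:115348959-115349208 (minus strand) for Cox6a1.
Cycs: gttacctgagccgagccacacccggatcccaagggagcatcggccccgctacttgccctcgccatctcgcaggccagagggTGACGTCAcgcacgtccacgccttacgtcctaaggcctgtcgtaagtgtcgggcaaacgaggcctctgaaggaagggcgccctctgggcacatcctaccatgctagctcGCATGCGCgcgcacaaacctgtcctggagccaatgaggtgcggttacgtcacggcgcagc
Cox7b: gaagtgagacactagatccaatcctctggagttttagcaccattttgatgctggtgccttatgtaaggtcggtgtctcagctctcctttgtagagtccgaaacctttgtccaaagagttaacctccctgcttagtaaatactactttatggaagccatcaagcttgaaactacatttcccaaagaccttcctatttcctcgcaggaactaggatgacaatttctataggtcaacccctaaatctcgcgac
Cox6a1: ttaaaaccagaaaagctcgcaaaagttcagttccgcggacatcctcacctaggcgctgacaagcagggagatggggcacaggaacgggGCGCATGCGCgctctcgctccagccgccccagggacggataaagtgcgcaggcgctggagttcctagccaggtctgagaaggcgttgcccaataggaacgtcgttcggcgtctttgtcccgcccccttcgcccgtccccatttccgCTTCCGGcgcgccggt
In Cycs, the CREB match lay 169 to 162 bases before the start and the NRF1 match, on the opposite strand, 60 to 53 bases before it. In Cox6a1, NRF1 matches on both strands overlapped between 162 and 153 bases before the start, and a GABPA match lay 16 to 10 bases before it. The Cox7b window held 0 matches to these letters. Of the 64 members, 49 had such a window in the RefSeq table, with 54 windows in all because some have several starts. GABPA letters were in 14 of the 54 windows (25.9%, 13 genes) and in 6.91% of all 32851 windows of the table. NRF1 letters were in 4 (7.41%; Atp5k, Cox6a1, Cycs and Sdhb) against 2.26%, and CREB letters in 2 (3.7%; Cycs and Uqcrfs1) against 1.55%. A match is a description of the letters and not a measured binding site.

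Most members were at or above the median level of the array. Of the 64, 55 had a mean over the 12 arrays at or above the median of all probe set means, 3.56. Cycs and Cox7b, which had the largest differences between fractions, were not far above it. Their means were 4.02 and 4.01, both at percentile 55.2 of all probe sets, and their ESC low means were below that median. The common complex IV subunit Cox5b had a mean below it, at 2.49 (percentile 32.4). The members below the lower quartile of 2.15 were the pseudogenes Uqcrh-ps1 and Atp5c1-ps and 3 tissue isoforms, Cox7b2, Cox8b and Cox8c. The values carry no detection call, so whether these dim genes were expressed cannot be read from them. The median spread within a group was 0.15 (SD) over the members and 0.16 over all probe sets. Of the pluripotency markers, 16 of 16 were above the array median on all 12 arrays. Between the cell types 1 of them was higher in iPSC, Klf2 (0.39 ± 0.09, adjusted p = 0.0369, limma), and 1 lower, Dppa3 (-1.20 ± 0.20, adjusted p = 0.00687). Of the fibroblast, mesendoderm, neural and trophoblast markers, 0 passed the test between fractions (limma, both cell types). At an unadjusted p under 0.05, 1 fibroblast marker was higher, and 1 fibroblast, 1 mesendoderm and 1 trophoblast marker were lower, in the high fraction.

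1 library was lowest for many members. ESC low 2 had the lowest value of the 12 arrays for 18 of the 64 members (28.1%), against 11.3% of all probe sets. In ESC, 45 of 64 members were above 0 in high minus low with that library and 43 without it. Values without it are given below for Cox7b, Sco2, Uqcrq, Cox6b1, Cox7a2, Cox5a, Cox6c and the members' median between cell types.

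Between the fractions, most members differed little, and the cytochrome c gene was the 1 member called. Averaged over ESC and iPSC, 1 member, Cycs, was higher in the high fraction and 0 were lower at an adjusted p under 0.05 (limma, Benjamini-Hochberg over all probe sets). The background was 1.60% of probe sets called higher and 0.905% called lower, so 1 call among 64 members was near the background share. At an unadjusted p under 0.05, 10 members were higher and 1 lower, where 7.97% and 7.65% of all probe sets were. The median difference of the members was 0.05, and 41 of 64 were above 0 (64.1%, against 50.9% of all probe sets). The count above 0 depended on scaling: with each array centred on its own median, 35 were above 0 and the members' median was 0.006. Centring moved the background as well, with the median of all probe sets going from 0.003 to -0.037. The members' median was above that of all probe sets both ways. Among probe sets at or above the median level, uncentred, 42.7% were above 0, with a median of -0.025. Of the 55 members at that level 67.3% were above 0, with a median of 0.05. In size, 30 members differed by less than 0.1 and 5 by 0.25 or more.

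**Figure D1:**
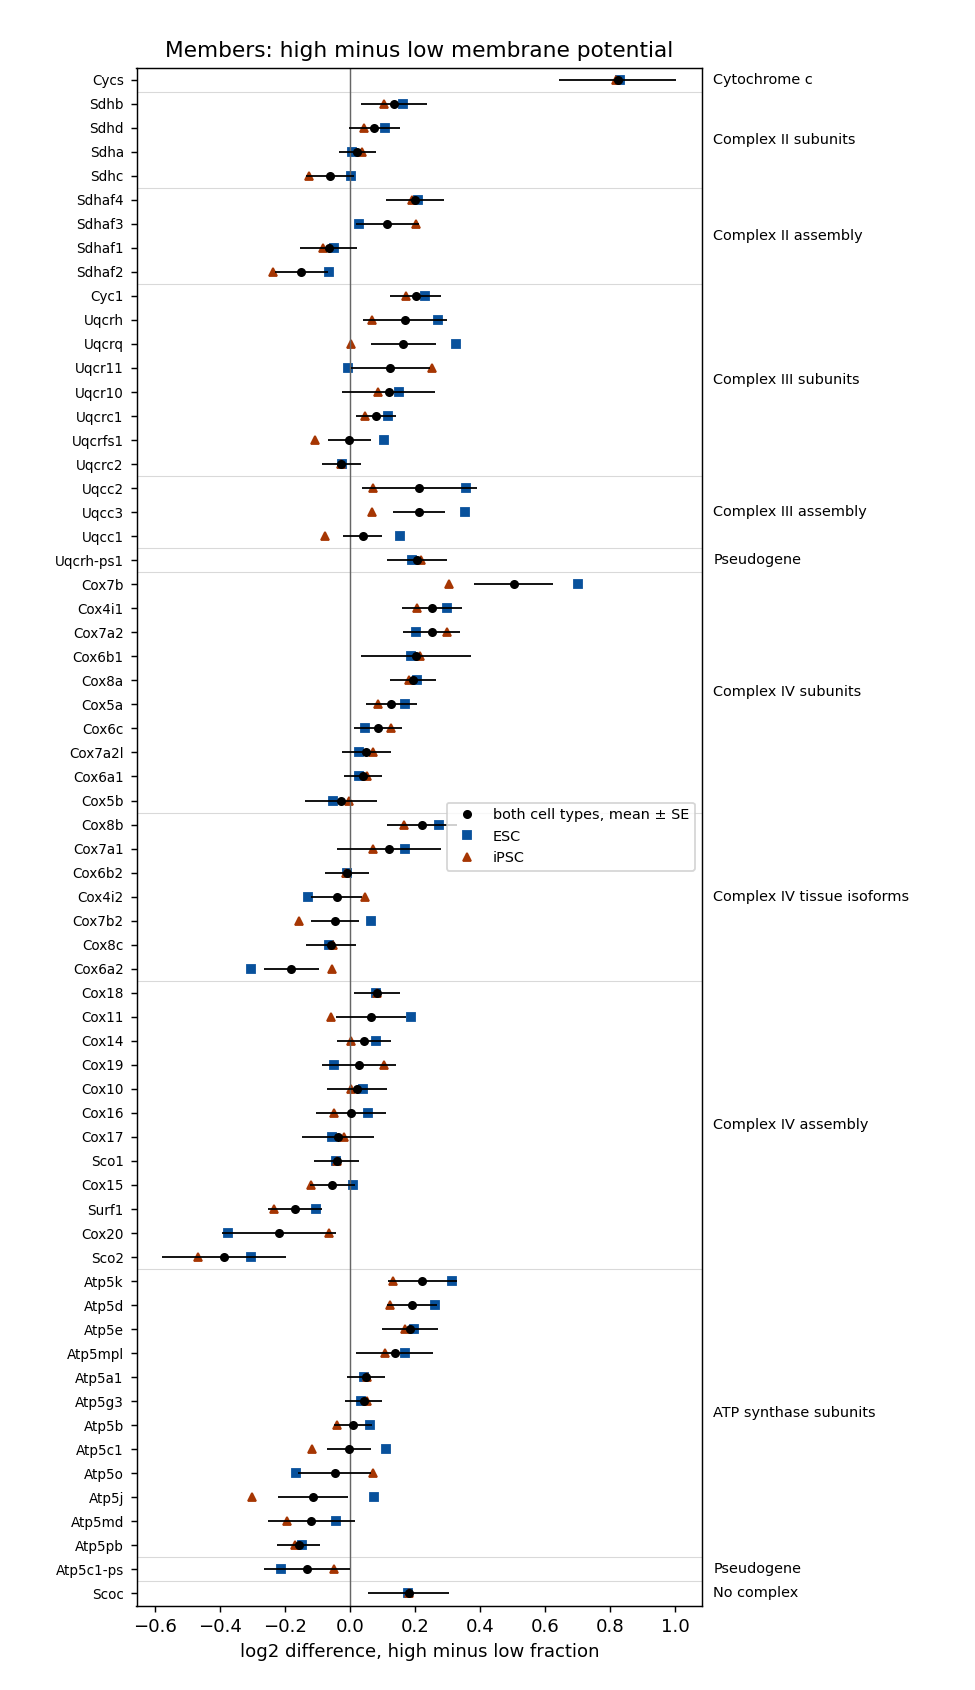
The plot of high minus low differences shows each of the 64 members on a row, ordered within complex and role, with the log2 difference on the horizontal axis. Black points with bars are the average of both cell types ± SE, blue squares are ESC and brown triangles are iPSC. Cycs lies at 0.82 and Cox7b at 0.50, and Sco2 is the lowest at -0.39.

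Cycs encodes somatic cytochrome c (Entrez gene 13063), the mobile electron carrier that also activates caspases when it leaves mitochondria. Its values were 3.43, 3.93 and 3.15 in ESC low and 4.52, 4.70 and 3.78 in ESC high. They were 4.08, 3.65 and 3.39 in iPSC low and 4.31, 4.59 and 4.68 in iPSC high. In iPSC every high array was above every low array, while in ESC 1 high array, number 4, was below 1 low array, number 3. High was above low in 6 of 6 same-numbered pairs. The difference was 0.83 ± 0.25 (SE) in ESC and 0.82 ± 0.25 in iPSC, and neither passed on its own (adjusted p = 0.303 and 0.180, limma). Averaged, it was 0.82 ± 0.18, a 1.77-fold difference (adjusted p = 0.0311, limma). The direction held when any 1 array was left out, at 0.73 to 0.96, but the adjusted p then ran from 0.00809 to 0.0828 and was under 0.05 in 4 of 12 such fits. The 8 libraries whose removal ended the call, with the adjusted p without each, were ESC low 2 (0.0739), ESC low 4 (0.0725), ESC high 2 (0.0772), ESC high 3 (0.0793), iPSC low 3 (0.076), iPSC low 4 (0.0828), iPSC high 3 (0.0725) and iPSC high 4 (0.0806). In those 8 fits, all probe sets called higher over both cell types fell from 403 to between 261 and 305. Cycs passed in the 4 alternatives that kept all arrays. Its adjusted p was 0.0155 with the replicate block, 0.0289 with centred arrays, 0.0233 with a variance trend and 0.0258 without dim probe sets (limma). Cycs has processed copies in the genome, and whether its probes also match transcripts of those copies was not examined.

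The other cytochrome, Cyc1, is the heme subunit of complex III that gives electrons to cytochrome c. It was at 7.03, 7.00 and 7.22 in ESC low, 7.42, 7.35 and 7.17 in ESC high, 7.11, 7.03 and 7.34 in iPSC low, and 7.24, 7.34 and 7.41 in iPSC high. The groups overlapped in both cell types. The averaged difference of 0.20 ± 0.08 did not pass (adjusted p = 0.228, limma).

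**Figure D2:**
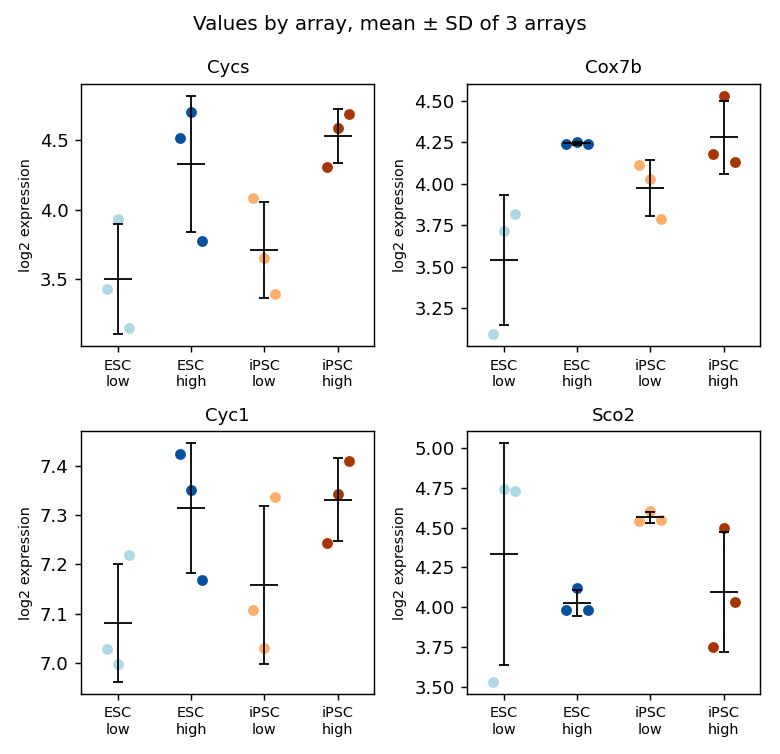
The plot of values by array shows Cycs, Cox7b, Cyc1 and Sco2 in the 4 groups, with log2 expression on each vertical axis, 1 point per array in label order 2, 3 and 4, and bars for the mean ± SD of 3 arrays. Each panel has its own scale and does not start at 0; the first ESC low point lies at 3.10 for Cox7b and at 3.53 for Sco2, apart from the other ESC low arrays.

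Over all of complex III, Cyc1 and the pseudogene included, no gene passed the test, and 10 of 12 were above 0 with a median of 0.14. The lowest p was that of the assembly factor Uqcc3. It was at 4.68, 4.92 and 5.02 in ESC low, 5.31, 5.13 and 5.24 in ESC high, 5.03, 5.02 and 4.81 in iPSC low, and 5.02, 5.13 and 4.90 in iPSC high. ESC high lay above ESC low without overlap, whereas the iPSC fractions overlapped. The averaged difference was 0.21 ± 0.08 (adjusted p = 0.217, limma), from 0.35 ± 0.11 in ESC and 0.07 ± 0.11 in iPSC. The small subunit Uqcrq had a like pattern, at 0.32 ± 0.14 in ESC and 0.00 ± 0.14 in iPSC, but the ESC value was 0.19 without ESC low 2. The core proteins Uqcrc1 and Uqcrc2, which frame the complex on the matrix side, were at 0.08 ± 0.06 and -0.03 ± 0.06 averaged, and the Rieske iron-sulfur protein Uqcrfs1 at -0.001 ± 0.07.

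Complex IV holds subunits, tissue isoforms and assembly factors, described here by role. Its 10 common subunits were counted with Cox7a2l, a factor related to Cox7a2, among them. Of the 10, 9 were above 0 averaged over the cell types, in ESC and in iPSC. The averaged median was 0.16, and 4 had an unadjusted p under 0.05 (limma). Over all probe sets 50.9% were above 0 and 7.97% higher at that unadjusted p. Part of the ESC lean rested on ESC low 2. Without it the ESC difference fell for Cox7a2 (0.20 to 0.04), Cox5a (0.17 to 0.07), Cox6b1 (0.19 to 0.05) and Cox6c (0.05 to -0.02). The ESC difference also fell for Cox4i1, Cox6a1, Cox7b and Cox8a, and it rose for Cox5b and Cox7a2l. Of the 12 assembly factors of complex IV, 6 were above 0 with a median of -0.02, and of its 7 tissue isoforms 2 were above 0. None passed the adjusted test, and the difference between these sets of genes was not tested.

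Cox7b (Entrez gene 66142), a small subunit encoded on the X chromosome, came nearest. Its values were 3.10, 3.72 and 3.82 in ESC low and 4.24, 4.25 and 4.24 in ESC high, and 4.12, 4.03 and 3.79 in iPSC low and 4.18, 4.53 and 4.13 in iPSC high. It was the member whose high arrays lay above all low arrays in both cell types, 1 of 64, where 1.98% of all probe sets did so; 0 members lay below in this way, and 1.83% of all probe sets. The difference was 0.70 ± 0.17 in ESC and 0.30 ± 0.17 in iPSC, and 0.50 ± 0.12 averaged (adjusted p = 0.0516, limma), with high above low in 6 of 6 pairs. With the replicate number as a block within each cell type the adjusted p was 0.0413 (limma). Without ESC low 2 the averaged difference was 0.39 ± 0.09 (adjusted p = 0.0599, limma).

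Copies of the same subunit that differ by tissue were set side by side, each against itself. Cox4i1, the common form of the regulatory subunit IV, was at 7.80, 7.96 and 8.26 in ESC low, 8.34, 8.34 and 8.23 in ESC high, 8.17, 7.88 and 8.21 in iPSC low, and 8.22, 8.21 and 8.45 in iPSC high, a difference of 0.25 ± 0.09 (adjusted p = 0.200, limma). Its counterpart Cox4i2, known as the oxygen-responsive form, was at 4.42, 4.01 and 4.22, then 3.97, 4.12 and 4.18, then 4.10, 4.15 and 4.27, and then 4.21, 4.18 and 4.27 in the same order of groups, a difference of -0.04 ± 0.08. The fractions overlapped in both cell types for both genes.

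For subunit VIIa, the common Cox7a2 was at 5.27, 5.74 and 5.78 in ESC low, 5.80, 5.71 and 5.89 in ESC high, 5.68, 5.64 and 5.67 in iPSC low, and 6.05, 5.89 and 5.95 in iPSC high. The iPSC fractions did not overlap and the ESC fractions did, and the averaged difference was 0.25 ± 0.09 (adjusted p = 0.181, limma). The heart and muscle form Cox7a1 ran from 5.31, 5.66 and 5.88 in ESC low and 5.46, 5.94 and 5.96 in ESC high to 5.32, 5.45 and 6.14 in iPSC low and 5.65, 5.48 and 6.00 in iPSC high. The array numbered 4 was the highest of each of these groups for Cox7a1, and the fractions overlapped (0.12 ± 0.16). Cox7a2l, a relative of Cox7a2, was at 3.76, 3.83 and 3.62, 3.84, 3.69 and 3.77, 3.51, 3.64 and 3.83, and 3.84, 3.67 and 3.68, a difference of 0.05 ± 0.07.

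For subunit VIII, the common Cox8a was at 8.32, 8.39 and 8.68 in ESC low, 8.72, 8.67 and 8.61 in ESC high, 8.57, 8.58 and 8.60 in iPSC low, and 8.76, 8.75 and 8.79 in iPSC high. All iPSC high arrays were above all iPSC low arrays, ESC overlapped, and the difference was 0.19 ± 0.07 (adjusted p = 0.198, limma). The muscle form Cox8b (1.84 to 2.44 over the 12 arrays) and the testis form Cox8c (1.41 to 1.87) were dim, at 0.22 ± 0.11 and -0.06 ± 0.08.

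For subunit VIb, which joins the monomers of the enzyme dimer, Cox6b1 was at 6.14, 6.23 and 6.90 in ESC low, 6.34, 6.69 and 6.81 in ESC high, 6.39, 6.14 and 6.97 in iPSC low, and 6.47, 6.67 and 7.01 in iPSC high. The array numbered 4 was again the highest of each group, and the difference of 0.20 ± 0.17 was near its error (0.13 without ESC low 2). The testis form Cox6b2 stayed between 6.95 and 7.19 on all 12 arrays (-0.01 ± 0.07). The muscle form of subunit VIa, Cox6a2, was at 3.76, 3.48 and 3.33 in ESC low, 3.10, 3.13 and 3.43 in ESC high, 3.54, 3.49 and 3.46 in iPSC low, and 3.41, 3.51 and 3.39 in iPSC high, which overlapped in both cell types (-0.18 ± 0.09, adjusted p = 0.341, limma).

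Of the complex IV assembly factors, Sco2 had the most negative difference of all members. Sco2 is a copper chaperone that loads the copper center of Cox2, and its values were chosen for display after they were seen. It was at 3.53, 4.74 and 4.73 in ESC low, 3.99, 4.12 and 3.98 in ESC high, 4.54, 4.60 and 4.55 in iPSC low, and 3.75, 4.50 and 4.04 in iPSC high. High was below low without overlap in iPSC, and ESC overlapped through the low value of ESC low 2. The averaged difference was -0.39 ± 0.19 (adjusted p = 0.357, limma), and without ESC low 2 it was -0.59 ± 0.11 (adjusted p = 0.0271, limma). Its paralog Sco1 was at -0.04 ± 0.07. The heme A pathway enzymes Cox10 and Cox15 were at 0.02 ± 0.09 and -0.05 ± 0.07, and the assembly factor Surf1 at -0.17 ± 0.08.

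In complex II, 5 of 8 members were above 0 and none passed. The flavoprotein Sdha, which oxidises succinate, was at 0.02 ± 0.06, the iron-sulfur subunit Sdhb at 0.14 ± 0.10, and the membrane anchors Sdhc and Sdhd at -0.06 ± 0.07 and 0.08 ± 0.08. Its lowest p was that of the assembly factor Sdhaf4. It was at 3.12, 3.51 and 3.30 in ESC low, 3.48, 3.38 and 3.70 in ESC high, 2.90, 3.19 and 3.26 in iPSC low, and 3.30, 3.27 and 3.35 in iPSC high, which did not overlap in iPSC and did in ESC (0.20 ± 0.09, adjusted p = 0.308, limma).

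In complex V, 7 of 13 members were above 0, with a median of 0.01. The catalytic F1 subunits Atp5a1 and Atp5b were at 0.05 ± 0.06 and 0.01 ± 0.06. The F1 subunit Atp5d had the lowest p. Its values were 9.12, 9.20 and 9.49 in ESC low, 9.65, 9.49 and 9.43 in ESC high, 9.42, 9.31 and 9.45 in iPSC low, and 9.49, 9.58 and 9.49 in iPSC high. Its iPSC arrays did not overlap and its ESC arrays did (0.19 ± 0.08, adjusted p = 0.243, limma). Atp5pb, a part of the peripheral stalk, was the member lower at an unadjusted p under 0.05, at -0.16 ± 0.07 (adjusted p = 0.265, limma).

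Within each cell type alone, no member passed the adjusted test. In ESC, 0 members were called (background 0.305% higher and 0.0516% lower), and 6 were higher and 1 lower at an unadjusted p under 0.05 (4.52% and 3.76% of all probe sets). The arrays did not overlap for 4 members higher (Uqcc3, Uqcrq, Cox7b and Atp5c1) and 0 lower in ESC high (6.71% and 6.36% of all probe sets). In iPSC, 0 were called (background 0.349% and 0.198%), with 2 higher and 0 lower unadjusted (7.04% and 5.64%). The iPSC arrays did not overlap for 7 members higher (Cycs, Cox7b, Cox7a2, Cox8a, Sdhaf3, Sdhaf4 and Atp5d) and 6 lower (Sco2, Surf1, Sdhaf2, Uqcc1, Uqcrfs1 and Atp5pb), against 9.76% and 9.57% of all probe sets. The member median was 0.07 in ESC and 0.05 in iPSC, the latter -0.009 with centred arrays, 0.02 without iPSC low 3 and 0.02 without iPSC high 4. In iPSC the median of all probe sets was 0.003, and -0.055 with centred arrays. Uncentred, probe sets at or above the median level had an iPSC median of -0.043, with 38.9% above 0. Of the 55 members at that level, 63.6% were above 0 in iPSC. The tested difference between the iPSC and the ESC effect called 0 members, and 0 of 25206 probe sets (0%, higher or lower), at an adjusted p under 0.05 (limma). At an unadjusted p under 0.05, 0 members were called against 2.84% and 1.53% of probe sets.

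Across members, the ESC differences were set against the iPSC differences, which share no array with them. Pearson's r was 0.69 and Spearman's rho 0.62 over the 64 members, and 0.59 and 0.60 without Cycs. Over all probe sets Pearson's r was 0.51 and Spearman's rho 0.36, and genes are not independent replicates. The sign was the same for 50 of 64 members (78.1%, against 61.7% of all probe sets, a background not matched for level). Single pairs varied: 46, 38 and 32 of the 64 were above 0 in ESC pairs 2, 3 and 4, and 27, 43 and 32 in the iPSC pairs.

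**Figure D3:**
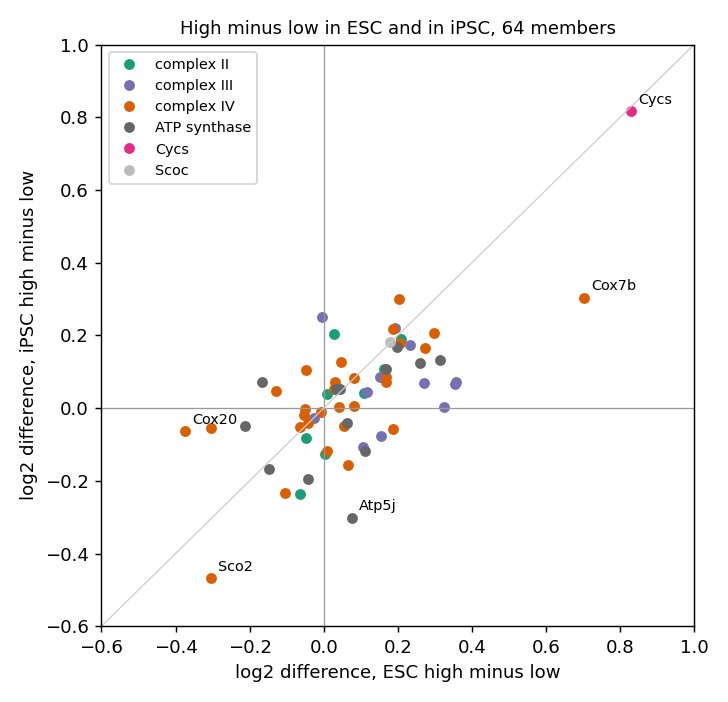
The scatter of effects plots high minus low in ESC (horizontal) against iPSC (vertical) as log2 differences, 1 point per member coloured by complex, with the line of equal effects in grey. Cycs lies near that line at 0.83 and 0.82, Cox7b has the larger ESC value, and Sco2 is at the lower left.

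Genes that work with the members were taken from lists. Of 42 other assembly factors and relatives of complexes II to V, 37 were measured, and 0 passed between fractions (limma; 5 higher and 3 lower unadjusted, median 0.03). Their lowest p-values belonged to Mss51 (0.37 ± 0.11, adjusted p = 0.119, limma), Lyrm2 (0.38 ± 0.12, adjusted p = 0.138) and Hccs, the enzyme that attaches heme to cytochrome c (-0.20 ± 0.07, adjusted p = 0.202). Of 18 listed regulators of respiratory chain genes, some of them acting on mitochondrial DNA or rRNA, 0 passed (limma). Unadjusted, 0 were higher and 3 lower, where 7.97% and 7.65% of all probe sets were. Those 3 were Tfb1m, a mitochondrial rRNA methyltransferase (-0.27 ± 0.08, adjusted p = 0.0975, limma), the activator Gabpa (-0.23 ± 0.07, adjusted p = 0.124) and Tfam, which packages and transcribes mitochondrial DNA (-0.29 ± 0.10, adjusted p = 0.158). Of 10 measured genes of the apoptotic pathway that cytochrome c triggers, 0 passed (0 higher and 1 lower unadjusted), and Apaf1, its binding partner, was at -0.29 ± 0.11 (adjusted p = 0.245, limma). The 44 complex I genes (Nduf symbols) had a median of 0.05 with 0 called (1 higher and 3 lower unadjusted), and the 76 mitochondrial ribosome genes a median of 0.02 with 0 higher and 1 lower. A list of G2 and mitosis genes was chosen with earlier results of these data known, so its count is no independent test. Of 9 measured, 7 were called higher in the high fraction (median 0.58), against 1.60% of all probe sets. The part of these genes in the Cycs difference was not tested.

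Between the cell types, 1 member was called. Cox18 was lower in iPSC than in ESC over both fractions, and 0 members were higher (background 0.916% higher and 1.96% lower). For 64 members, 1 call was near the background share. At an unadjusted p under 0.05, 0 members were higher and 7 lower, where 7.37% and 7.34% of all probe sets were. The member median was 0.03, and leaving out 1 array moved it by over 1.5 times in 3 of 12 cases: 0.004 without iPSC low 4, 0.01 without iPSC high 4 and 0.02 without ESC low 2.

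Cox18 (Entrez gene 231430) encodes the inner membrane insertase that places the tail of Cox2, a core subunit of complex IV. Its values were 7.56, 7.52 and 7.23 in ESC low and 7.48, 7.55 and 7.53 in ESC high, and 7.00, 6.93 and 6.83 in iPSC low and 7.07, 6.97 and 6.97 in iPSC high. Every iPSC array was below every ESC array. The difference was -0.52 ± 0.07, a ratio of 0.698 (adjusted p = 0.00257, limma). It passed in all 16 alternative fits, at -0.57 to -0.49 with adjusted p-values from 0.000681 to 0.0103. Between the fractions, the Cox18 difference of 0.08 ± 0.07 did not pass (adjusted p = 0.638, limma).

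Cox6a1, the common form of subunit VIa, was the other member whose cell types did not overlap, 2 of 64 where 1.75% of all probe sets were lower in this way. It was at 11.10, 11.06 and 11.22 in ESC low, 11.12, 11.14 and 11.21 in ESC high, 10.88, 10.85 and 10.91 in iPSC low, and 10.99, 10.87 and 10.94 in iPSC high. The difference was -0.23 ± 0.06 (adjusted p = 0.0547, limma), which passed with a variance trend (0.00123) or without dim probe sets (0.0197). Atp5k, the membrane subunit e that helps ATP synthase dimers form, was at 8.46, 8.26 and 8.78 in ESC low, 8.71, 8.66 and 9.07 in ESC high, 8.35, 8.23 and 8.23 in iPSC low, and 8.48, 8.18 and 8.54 in iPSC high. These overlapped, and the difference was -0.32 ± 0.11 (adjusted p = 0.153, limma).

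In complex III the lowest p belonged to Uqcrc1. It was at 8.75, 8.78 and 8.92 in ESC low, 9.01, 8.93 and 8.86 in ESC high, 9.00, 8.88 and 9.01 in iPSC low, and 8.95, 9.04 and 9.04 in iPSC high, which overlapped (0.11 ± 0.06, adjusted p = 0.467, limma). In complex II it was Sdhaf4, whose values are given above (-0.20 ± 0.09, adjusted p = 0.318, limma). All 4 complex II assembly factors were below 0 and all 4 subunits above 0, with none called.

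The members lowest in iPSC shared a position in the genome. Of the 7 lowest members, 6 lie on chromosome 5 (Cox18, Cox19, Atp5k and Cox6a1) or chromosome 12 (Cox16 and Atp5mpl), a grouping chosen after the values were seen. Among probe sets at or above the median level, the 752 of chromosome 5 had a median iPSC minus ESC difference of -0.24, with 26.1% called lower and 86.4% below 0. The 475 of chromosome 12 had a median of -0.29, with 35.2% called lower and 90.5% below 0. The medians of the other 18 chromosomes lay between -0.0008 and 0.05. Chromosome copy number was not measured in these files, and the cause was not tested. The 56 members on other chromosomes had a median of 0.05, with 37 above 0 (66.1%) and 0 called. Of the 10613 probe sets of those chromosomes at or above the median level, 57.1% were above 0, with a median of 0.02. Among these, 171 were called higher and 79 lower.

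Cox19, a copper-handling assembly factor on chromosome 5, was at 4.35, 4.60 and 4.70 in ESC low, 4.43, 4.29 and 4.78 in ESC high, 3.74, 4.11 and 4.32 in iPSC low, and 4.16, 4.24 and 4.07 in iPSC high. Only the highest iPSC array, 4.32, reached into the ESC range, and the difference was -0.42 ± 0.11 (adjusted p = 0.0738, limma). It passed in 3 of 16 alternative fits (limma), without dim probe sets (0.0432), without iPSC low 4 (0.0463) and with the replicate number as a block (0.0470). The labels do not say whether the numbers pair the cell types. Cox16 on chromosome 12, an assembly factor that acts with Cox2, was at -0.31 ± 0.11 (adjusted p = 0.181), and Atp5mpl, a small membrane subunit of ATP synthase, at -0.24 ± 0.12 (adjusted p = 0.371). The other members on these chromosomes, the dim Cox7b2 on 5 and Cox8c on 12, were at -0.01 ± 0.07 and 0.12 ± 0.08. Cox20, the chaperone of Cox2, was the member among the 7 lowest from elsewhere, chromosome 1 (-0.39 ± 0.17, adjusted p = 0.317).

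**Figure D4:**
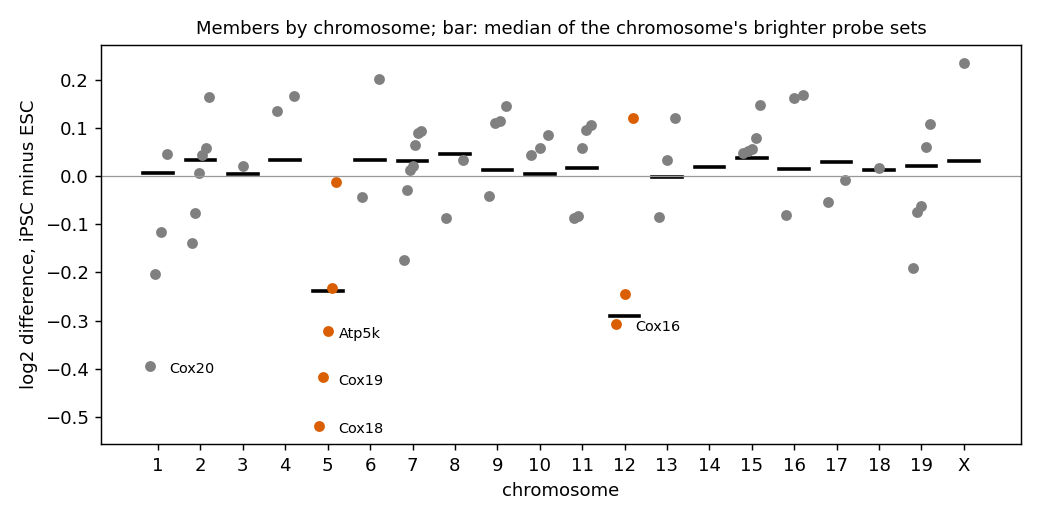
The plot by chromosome shows iPSC minus ESC as log2 differences for each member (points, orange on chromosomes 5 and 12) and the median of the chromosome's probe sets at or above the median level (black bars). The bars of chromosomes 5 and 12 lie at -0.24 and -0.29, and those of the other chromosomes near 0.

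**Figure D5:**
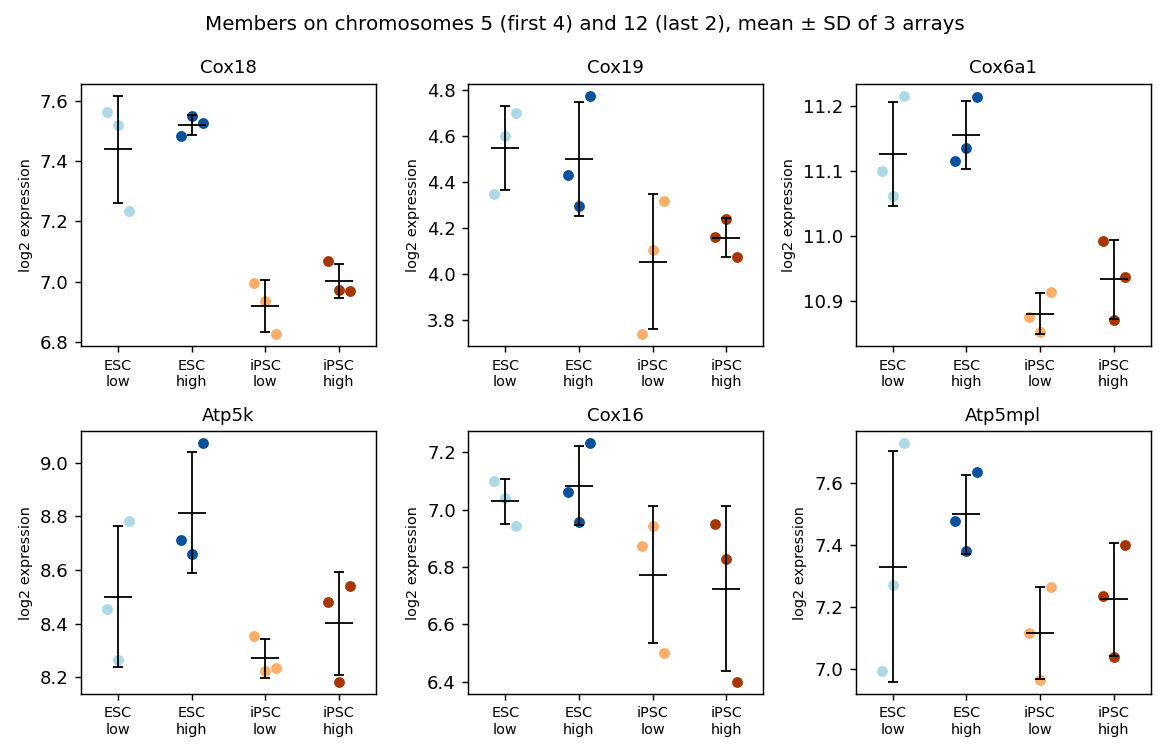
The plot of 6 members on chromosomes 5 and 12 gives log2 expression per array in the 4 groups, with bars for the mean ± SD of 3 arrays and a scale of its own in each panel that does not start at 0. For Cox18 and Cox6a1 all iPSC points lie below all ESC points, and for the other 4 the ranges touch or overlap.

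Related genes outside the name rule were called on these chromosomes too, and elsewhere. Of the 37 other genes of complexes II to V, 0 were higher and 3 lower in iPSC: Smim20 on chromosome 5 (-0.44 ± 0.10, adjusted p = 0.0288, limma), Coa8 on chromosome 12 (-0.32 ± 0.08, adjusted p = 0.0385), both assembly factors of complex IV, and Tmem70 on chromosome 1, which assembles ATP synthase (-0.47 ± 0.07, adjusted p = 0.0039). Of the regulators, Tfb1m was lower in iPSC (-0.33 ± 0.08, adjusted p = 0.0387, limma). Cycs and Cox7b, the members nearest to a difference between fractions, were at 0.20 ± 0.18 and 0.24 ± 0.12 between cell types (adjusted p = 0.683 and 0.415, limma). Single arrays moved both: with 1 array left out, Cycs ran from 0.06 (without ESC high 4) to 0.31 (without ESC low 3), and Cox7b from 0.12 (without ESC low 2) to 0.30 (without ESC low 4).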

How the data were processed

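Expression was measured on 12 arrays, 3 per group. The deposited values are log2 expression made by the authors with RMA (background correction, quantile normalization and summary per probe set); affy 1.36.1 and R 2.15.1 are named in the submitters' processing notes. For the chip definition and genome build, no source used here gives a version. No read depth applies, and the number of arrays limits the precision.

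Of 25206 probe sets, 23185 had 1 gene symbol in the platform annotation, 0 several and 2021 none. The RefSeq table of GRCm38.p6 held all 23185 gene numbers and changed 0 symbols. Members and lists were chosen with earlier results of these data known. All members may be named. Values on all arrays are given for members past the threshold, Cycs, Cyc1, the member of lowest p per complex, and isoform sets; Sco2 and Cox19 fall outside that rule and were chosen after their values were seen.

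limma 3.58.1 in R 4.3.3 was fitted with 1 mean per group over all 12 arrays, no block, and Benjamini-Hochberg adjustment over all 25206 probe sets in each of 5 comparisons; a call is an adjusted p under 0.05. The fit was tested on simulated data. Figures used matplotlib 3.10.9 in Python 3.11.15. Residuals of same-numbered low and high arrays correlated at 0.341, 0.233 and 0.283 in ESC and 0.107, 0.127 and 0.213 in iPSC. These were all above those of other numbers in the same cell type. Within a cell type the numbers were therefore taken as pairs, in the replicate block and in counts over pairs. This pairing rests on these values and not on the labels, and the main fit left the arrays unpaired. Between the cell types, residuals of same-numbered arrays correlated between -0.0948 and 0.131. Alternatives were a replicate block, array centring, a variance trend, leaving out dim probe sets, comparing groups alone, and leaving out each array.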

Additional observations from a re-analysis of the deposited data

Results flagged for a closer look

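For 2 members, every ESC pair and every iPSC pair moved in opposite directions between the fractions, which is why they are listed. The share of all probe sets that did so was not counted, so 2 of 64 is not a result about these members. Atp5j, the F6 part of the ATP synthase stalk, had high minus low differences of 0.05, 0.09 and 0.08 in ESC pairs 2, 3 and 4, and of -0.28, -0.02 and -0.61 in the iPSC pairs. The difference of effects was -0.3767 and did not pass the test of the difference itself (adjusted p = 0.9998, limma). Cox7b2, the testis form of subunit VIIb, had a difference of effects of -0.2232 (adjusted p = 0.9998, limma) and had a mean below the lower quartile of probe set means. Of the 64 members, 0 passed this test.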

How the results depend on the processing

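With the replicate block, which pairs the fractions within a cell type, the members called higher in the high fraction over both cell types went from 1 to 2 (Cycs and Cox7b), and they were also 2 with a variance trend and 2 without dim probe sets; leaving out 1 array gave 0 to 1. Members called lower there were 0, and 0 to 1 when 1 array was left out, the 1 being Sco2 without ESC low 2. Members called lower in iPSC than in ESC went from 1 to 2 (Cox18 and Cox19) with the block on numbers shared by both cell types. The labels do not say whether those numbers pair the samples. These calls went to 2 with a variance trend and to 3 without dim probe sets, and were 1 to 2 when 1 array was left out. Without dim probe sets, 12603 were tested. Counts in the other comparisons stayed at 0 under these alternatives, and no called value turned its direction. Without ESC low 4, the member called in the high fraction was Cox7b (adjusted p = 0.0386, limma) and not Cycs. Over all probe sets, the block called 146 higher and 31 lower in ESC, against 77 and 13 without it, and 142 and 94 in iPSC, against 88 and 50. Leaving out 1 array lowered these counts too, to 17 and 2 in ESC without ESC low 2, and in iPSC to 9 and 4 without iPSC low 4 and to 0 and 1 without iPSC high 4. Array centring moved the averaged split from 403 higher and 228 lower to 361 and 368. Without Cycs, the members' median over both cell types was 0.04, a value added after the data were seen.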
